A study of Rattus norvegicus with 16 samples.

Results

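Neutrophil alarmins, granule proteins and receptors were followed through 8 genes: S100a8, S100a9, Lcn2, Cxcr2, Mmp8, Mmp9, Mpo and Csf3r. Their probes were found by matching the RefSeq accession that each array file gives for a probe to a gene symbol, with control spots left out. Of the 8 genes, 7 had a probe among the 30367 gene probes of the array, and no probe was named Mpo. Each of the 7 was represented by a single probe, printed as 2 spots on the array, and as 10 spots for Mmp9. The probes were A_44_P1055780 for S100a8, A_44_P353618 for S100a9, A_42_P638620 for Lcn2, A_64_P024202 for Cxcr2, A_43_P12170 for Mmp8, A_44_P501112 for Mmp9 and A_64_P018271 for Csf3r. The 7 genes are described on all 16 arrays, among 26785 genes or unnamed probes measured.

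RNA came from female rats of 2 inbred strains, Wistar Kyoto (WKY) and Lewis (LEW), aged 15 weeks. All animals had received an autoantigen that causes autoimmune glomerulonephritis, and their tissues were collected from day 30 to day 35, so no group is unimmunised. Mononuclear cells from a Ficoll gradient, or cells released from digested glomeruli, were sorted with magnetic beads. The sorts gave CD8+ cells that carried RT1B, a rat MHC class II molecule (RT1B+), or little of it (RT1Blow), from WKY blood, LEW blood and WKY glomeruli. A further pair of groups was labelled as pan T cells of WKY blood and macrophages of WKY glomeruli. Each of the 8 groups had 2 Agilent 1-colour arrays, and the labels do not say whether the 2 came from different animals, so the spread behind each p-value is that between arrays and may be technical. A Ficoll gradient leaves most granulocytes below the mononuclear layer, and no group was labelled as neutrophils.

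Neutrophils carry ready-made proteins in granules that are filled in order as the cell matures. Myeloperoxidase (Mpo) and the serine proteases go into the azurophil granules, lipocalin 2 (Lcn2) and collagenase 2 (Mmp8) into the specific granules, and gelatinase B (Mmp9) into the gelatinase granules. S100a8 and S100a9 encode the 2 chains of calprotectin, a calcium-binding complex that fills the cytosol of neutrophils and monocytes and acts as an alarmin when it is released. CXCR2 is the receptor for the CXCL1 and CXCL2 chemokines, and CSF3R is the receptor for granulocyte colony-stimulating factor. Several of these genes are also used outside neutrophils: Lcn2 in injured kidney epithelium, Mmp9 in many leukocytes, and S100a8, S100a9 and Csf3r in monocytes.

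Start regions are shown for S100a9, Lcn2 and Csf3r, which were higher on the macrophage-labelled arrays than in pan T cells, as described below. S100a8 and Mmp9 were higher there too, but the reference used held no start region for them. Csf3r did not have its highest mean level on the macrophage-labelled arrays. Each run is the 250 bases before and 50 bases after the start of the gene in RefSeq (assembly GRCr8), read 5′ to 3′ on the strand of the gene. S100a9 lies at chr2:178490573-178490872 on the minus strand, Lcn2 at chr3:36081731-36082030 on the minus strand and Csf3r at chr5:143582970-143583269 on the plus strand. Capitals mark matches to 3 motifs searched on both strands: TTNNGNAA, a form of the C/EBP site, a form of the NF-kB site (GGG, any 5 bases, then CC), and the TATA box TATAAA.
S100a9: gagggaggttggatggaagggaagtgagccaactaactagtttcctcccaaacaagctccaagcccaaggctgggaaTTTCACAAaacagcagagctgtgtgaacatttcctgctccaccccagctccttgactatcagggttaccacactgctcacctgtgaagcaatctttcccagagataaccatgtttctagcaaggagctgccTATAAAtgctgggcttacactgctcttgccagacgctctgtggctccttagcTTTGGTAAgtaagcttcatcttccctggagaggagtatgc
Lcn2: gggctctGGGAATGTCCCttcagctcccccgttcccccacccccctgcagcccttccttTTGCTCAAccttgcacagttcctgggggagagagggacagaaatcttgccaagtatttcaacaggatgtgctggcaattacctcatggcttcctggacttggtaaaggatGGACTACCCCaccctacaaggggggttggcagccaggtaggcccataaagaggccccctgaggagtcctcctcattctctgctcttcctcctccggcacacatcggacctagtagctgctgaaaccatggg
Csf3r: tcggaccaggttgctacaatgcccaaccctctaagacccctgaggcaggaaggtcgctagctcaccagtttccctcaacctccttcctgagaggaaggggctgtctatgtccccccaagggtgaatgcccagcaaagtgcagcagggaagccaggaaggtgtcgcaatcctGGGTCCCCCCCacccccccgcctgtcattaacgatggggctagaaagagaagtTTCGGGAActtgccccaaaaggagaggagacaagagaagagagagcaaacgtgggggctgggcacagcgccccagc

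The C/EBP form matched 2 times in the S100a9 window, at bases -173 to -166 and 11 to 18 from the start, and once each in the Lcn2 window (-191 to -184) and the Csf3r window (-26 to -19). It is a loose pattern, found in 41.32% of 33469 rat promoter windows of the same 300 bases. The NF-kB form matched 3 times in the Lcn2 window and 2 times in that of Csf3r, with a pair of matches overlapping each other in both, and not in that of S100a9, against 47.27% of all windows. The TATA box matched in S100a9 at bases -42 to -37, against 14.22% of all windows. Another pattern searched, the AP-1 form TGANTCA, occurred in 7.329% of windows and in none of these 3. A match is a run of letters and no measurement of binding.

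Levels are given as log2 of the background-corrected signal of the array minus the 75th percentile of that array, so 0 is the level of that percentile, and each step of 1 is a doubling. They follow a single probe from array to array, and levels of different probes are not set against each other. The scanner software put 57.3% to 68.6% of the 58717 gene spots of an array well above background, and the dimmest such signal lay between -6.56 and -4.68, so values in that range or lower have little order. S100a8 was well above background on 10 of 16 arrays, S100a9 on 11, Lcn2 on 3, Mmp9 on 16 and Csf3r on 11, and Cxcr2 and Mmp8 on 0. Testing needed both arrays of some group to be well above background, which held for 17895 genes, 5 of the 8 among them: S100a8, S100a9, Lcn2, Mmp9 and Csf3r. Lcn2 met this through the macrophage-labelled group alone. A call needed a limma p, adjusted over all these genes by Benjamini-Hochberg, under 0.05, a difference of at least 2-fold, and both arrays well above background in a group being compared.

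Arrays whose titles or marker levels raise a question about their content touch several results. The macrophage-labelled arrays carry the name of a pan T sort inside their titles. Their T cell receptor gene Cd3e, at -0.03 and -1.13, was below the 2.18 and 2.64 of the blood pan T arrays. Glomerular CD8+ sorts minus these arrays gave no call for Cd3e (-1.25 in RT1B+ and -0.31 in RT1Blow cells). Of 7 T cell markers 4 were lower and 1 higher in RT1B+ cells than on these arrays. In RT1Blow cells 2 were lower and 1 higher. Both macrophage-labelled arrays had all 7 well above background. They also held kidney RNA: all 8 kidney tubule markers were well above background on both, with a mean level of -2.04 and -2.05 against -5.71 to -3.97 elsewhere, and the 8 glomerular markers averaged -0.17 and 0.38 against at most -3.61 elsewhere. The class II gene RT1-Bb stood at 3.16 on replicate 2 of the glomerular RT1Blow arrays, above both glomerular RT1B+ arrays (2.45 and 2.54), whereas replicate 1 had 1.56. Replicate 1 of the WKY blood RT1B+ arrays had the lowest mean level of the 11 monocyte and macrophage markers, -4.37 against -3.09 for its partner. In sorted cells measured in bulk, fewer cells of a type and less RNA per cell cannot be told apart.

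The calprotectin genes were highest on the macrophage-labelled arrays, next in glomerular RT1Blow cells, intermediate in glomerular RT1B+ cells and in LEW blood, and near background in WKY blood. S100a8, the smaller calprotectin chain, had levels of 0.53 and -1.01 on the macrophage-labelled arrays and -2.00 and -2.22 in glomerular RT1Blow cells. Its values in the glomerular RT1B+ sort were -4.15 and -3.62, in LEW blood RT1Blow cells -3.22 and -3.45, and in LEW blood RT1B+ cells -3.63 and -4.42. None of the 6 arrays of WKY blood was well above background, at -6.83 and -5.80 (RT1B+), -6.66 and -4.85 (RT1Blow) and -4.89 and -6.67 (pan T). The 3 groups of WKY blood overlapped each other and lay below every array of the other 5 groups.

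S100a9, the partner chain, followed the same order. It had 1.48 and 0.01 on the macrophage-labelled arrays, -0.40 and -0.53 in glomerular RT1Blow cells and -2.91 and -2.40 in glomerular RT1B+ cells. LEW blood cells had -2.81 and -2.81 in the RT1Blow sort and -2.94 and -4.12 in the RT1B+ sort. In WKY blood it was well above background on 1 array of the RT1B+ sort (-4.49, with -6.93 on its partner) and on none of the RT1Blow (-5.64 and -5.33) or pan T (-4.91 and -5.32) arrays. Across the 16 arrays S100a8 and S100a9 had a Pearson correlation of 0.97, and each was the other's closest gene among 10784 tested genes with a symbol. The next closest to S100a8 were Ctsz, which encodes a lysosomal cathepsin (0.95), and Sulf2, which encodes an extracellular sulfatase (0.94). For S100a9 they were Rab7b (0.96), which encodes a small GTPase of the endosomal system, and Lgals3 (0.95), which encodes galectin 3. These correlations describe 16 arrays that share groups and slides.

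Lcn2, whose protein binds bacterial siderophores, was bright in a single group. It had -0.57 and -1.06 on the macrophage-labelled arrays and lay between -7.41 and -5.73 on the other 14, where 1 array, a glomerular RT1B+ one at -5.98, was well above background. Among its closest genes were Tspan15 (0.99) and Dysf (0.98), which encode a tetraspanin and a membrane repair protein. The correlation of Lcn2 with S100a8 was 0.77.

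Mmp9, a secreted protease that cleaves type IV collagen and denatured collagens, behaved differently from the calprotectin genes, and its correlation with S100a9 was 0.17. It was well above background on every array. In LEW blood it had 0.24 and 0.11 (RT1B+) and 0.06 and -0.10 (RT1Blow), in WKY blood -0.23 and -0.65 (RT1B+) and -0.53 and -0.51 (RT1Blow), and on the macrophage-labelled arrays -0.04 and 0.33. The glomerular CD8+ cells were lower, at -2.82 and -2.28 (RT1B+) and -2.47 and -1.68 (RT1Blow), and pan T cells were lowest, at -4.50 and -4.70. The groups thus fell into 3 separate ranges: pan T cells, glomerular CD8+ cells, and the remaining 5 groups. Its closest genes were Copz2 (0.98), Lrp5 (0.97) and Dab2ip (0.96), for a coatomer subunit, a Wnt co-receptor and a Ras GTPase-activating protein.

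Csf3r, the growth factor receptor of the neutrophil lineage, was dim throughout. It had -3.04 and -3.77 in LEW blood RT1Blow cells, -4.49 and -4.63 in LEW blood RT1B+ cells, -4.31 and -4.09 in WKY blood RT1Blow cells and -6.95 and -5.04 in WKY blood RT1B+ cells. In glomeruli it had -2.97 and -4.91 in RT1Blow cells, -6.76 and -7.15 in RT1B+ cells and -4.09 and -4.30 on the macrophage-labelled arrays. Pan T cells had -7.25 and -5.57. Glomerular RT1Blow replicate 1 had the lowest 75th percentile signal of all arrays, 471 against 1065 on its partner. The Csf3r signals of these arrays before scaling were 60.1 and 35.5. Csf3r was not well above background in glomerular RT1B+ or pan T cells. In each of the 3 RT1B sorts both RT1Blow arrays were above both RT1B+ arrays, but several of these values lay near background. The share of all genes that separated in this way is not given here, and Csf3r was not called in the gate comparisons reported below. Its closest genes were Ceacam4, a receptor of the carcinoembryonic antigen family (0.94), Dok3, an adaptor of myeloid and B cells (0.94), and Lilrc2, a leukocyte immunoglobulin-like receptor (0.93).

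The receptor gene Cxcr2 and the collagenase gene Mmp8 were not well above background on any array. Cxcr2 ranged from -7.96 to -4.64 with a median of -6.84, and Mmp8 from -8.75 to -4.78 with a median of -7.46. The single highest Mmp8 value came from replicate 1 of the WKY blood RT1B+ arrays. No fold is given for either gene.

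**Figure D1:**
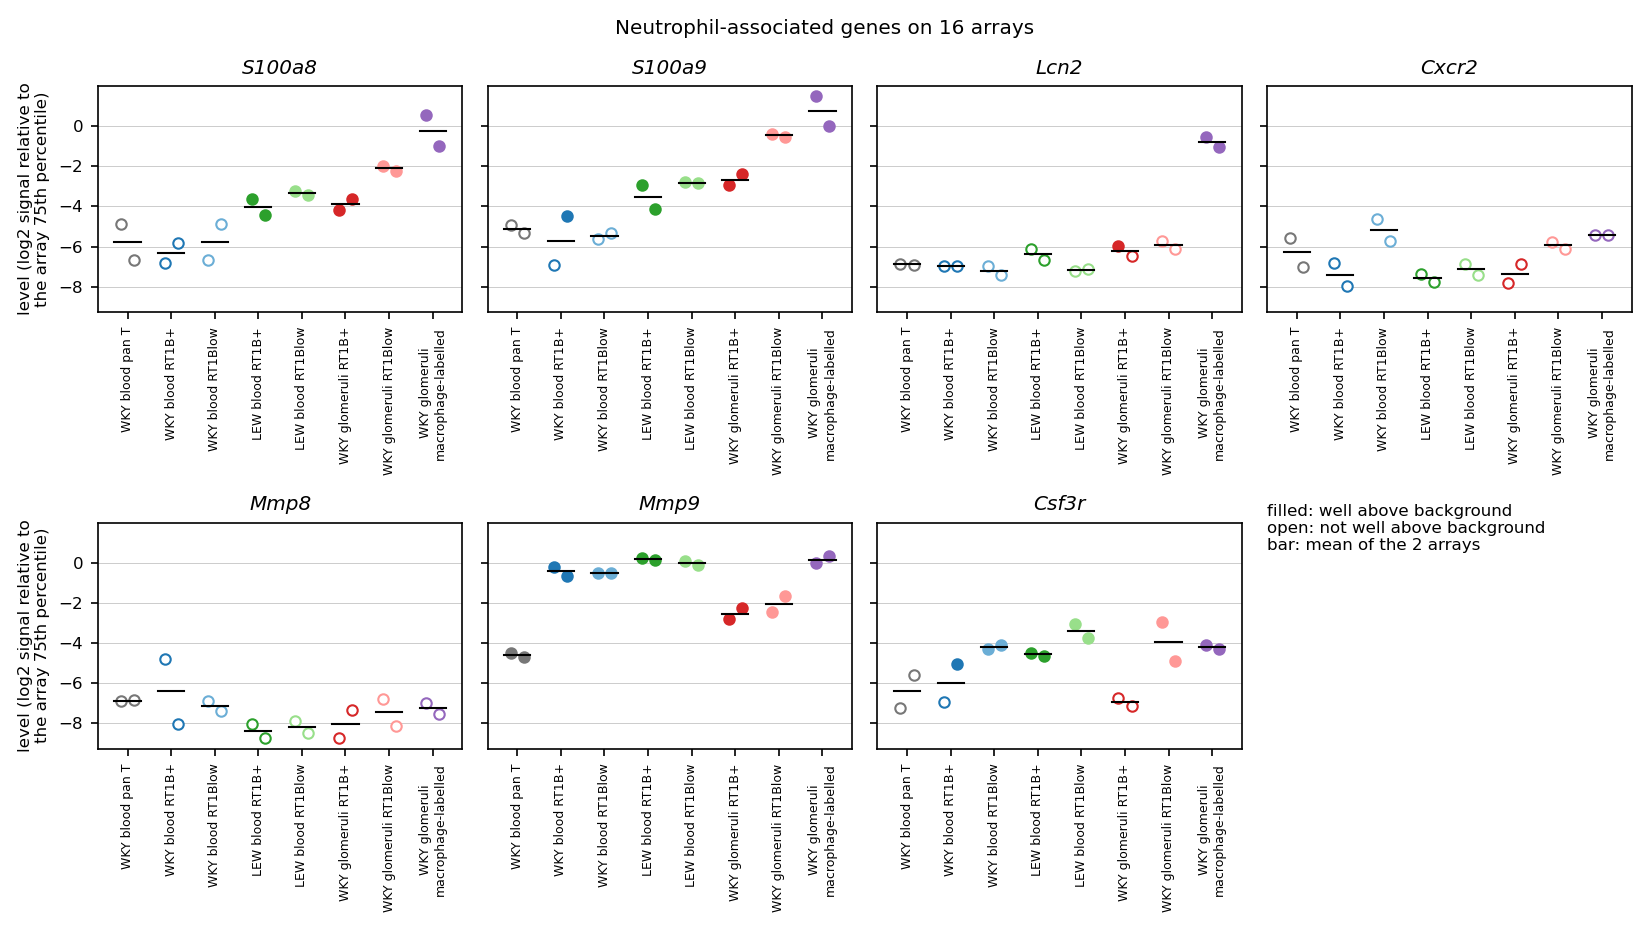
Levels of the 7 measured genes on 16 arrays, as log2 signal minus that of each array's 75th percentile. Filled points were well above background, open points were not, and bars are means of the 2 arrays of a group; S100a8 and S100a9 were highest on the macrophage-labelled arrays and in glomerular RT1Blow cells, Lcn2 was bright on the macrophage-labelled arrays, and Mmp9 was lowest in pan T cells.

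The macrophage-labelled arrays and the pan T arrays lay on the same slide, the former in columns 3 and 4 and the latter in columns 1 and 2. Group and column therefore cannot be told apart. All 5 tested genes were higher on the macrophage-labelled arrays, in a comparison where 37.7% of all genes tested were called and 17.8% called higher. S100a8 was at least 25.5-fold higher (log2 difference 5.54, SE 0.72, limma adjusted p = 8.85e-05) and S100a9 at least 50.8-fold (5.86, SE 0.69, adjusted p = 4.46e-05). Here "at least" sets the brighter group against dim arrays raised to the lowest signal well above background on each, so it can be well under the fold that the log2 difference gives. Lcn2 was at least 20.7-fold higher (6.07, SE 0.28, limma adjusted p = 1.15e-07) and Mmp9 26.8-fold (4.75, SE 0.29, adjusted p = 5.84e-07). Csf3r was at least 1.99-fold higher (2.22, SE 0.72, limma adjusted p = 0.0238), and without pan T replicate 1 its difference was 1.38 with an adjusted p of 0.201. Without either macrophage-labelled array it also missed the threshold, at 2.11 (adjusted p = 0.0937) and 2.32 (adjusted p = 0.0691). It was not called with normexp, a background correction that adds an offset of 50 and so shrinks differences between dim signals (0.76, limma adjusted p = 0.157), with quantile normalization (1.95, adjusted p = 0.0898) or with the series matrix, the authors' own processed table (2.84, adjusted p = 0.0757). Lcn2 was 3.64 with normexp. The median over the 5 genes was 5.54, beside -0.23 over all genes tested. Lcn2 was open to testing only through the macrophage-labelled group, so its calls against that group draw on the filter that admitted it. The count and median over the 5 genes include it.

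Other granule genes could be tested only in part. Of 8 azurophil granule genes with a probe, 0 could be tested: the elastase, proteinase 3 and cathepsin G genes (Elane, Prtn3, Ctsg), Bpi and the defensins Defa5, Np4 and Defal1 were not well above background on any of the 16 arrays. The defensin gene RatNP-3b was, on 2 arrays: -4.03 on replicate 2 of the macrophage-labelled arrays and -5.86 on replicate 2 of the glomerular RT1Blow arrays. Of 8 specific and gelatinase granule genes tested, Lcn2 and Mmp9 included, 4 were higher and 2 lower on the macrophage-labelled arrays than in pan T cells, with a median of 2.35. Besides Lcn2 and Mmp9 these were Chi3l1, which encodes a chitinase-like protein (4.39, limma adjusted p = 0.000907), and Camp, the cathelicidin gene (2.38, adjusted p = 0.00197). The 2 lower ones were the haptoglobin gene Hp (-1.14, limma adjusted p = 0.00377) and the lactoferrin gene Ltf (-2.30, adjusted p = 0.0113). Ltf was well above background on both pan T arrays (-2.82 and -3.64) and on 1 LEW blood RT1B+ array (-4.82), and on no other.

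Receptors, oxidase subunits and lineage transcription factors were higher on the macrophage-labelled arrays as well. Of 10 receptor genes tested, Csf3r included, 9 were higher than in pan T cells and 0 lower (median 3.08), with Il1r2, the decoy receptor for interleukin 1, at 5.22 (limma adjusted p = 8.04e-05) and Tlr4, the lipopolysaccharide receptor, at 5.03 (adjusted p = 0.000402). Of 5 subunits of the phagocyte oxidase 4 were higher (median 2.89), such as Cybb at 3.40 (limma adjusted p = 8.93e-05). Of 6 granulocyte transcription factors 5 were higher (median 4.12), such as Cebpd at 5.64 (limma adjusted p = 2.26e-05) and Cebpa at 3.97 (adjusted p = 0.000311). These lists are not specific to neutrophils: of 9 monocyte and macrophage markers 4 were higher too (median 1.97), among them Cd14 at 6.25 (limma adjusted p = 0.000275) and Cd68 at 4.68 (adjusted p = 0.000283). Of the kidney markers, 5 of 8 tubule genes and 5 of 6 glomerular genes tested were higher, the latter with a median of 6.78. The part that the myeloid or kidney RNA has in the levels of the 5 genes was not tested.

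Against the macrophage-labelled arrays, the glomerular CD8+ cells of the same slide were lower in most of the 5 genes. The CD8+ arrays lay in row 1 of that slide and the macrophage-labelled arrays in row 2, so group and row cannot be told apart. In RT1B+ cells all 5 were lower, where 36.7% of genes were called and 15.8% called lower. S100a8 was 12.5-fold lower (log2 difference -3.64, limma adjusted p = 0.0018), S100a9 10.6-fold (-3.40, adjusted p = 0.00211) and Mmp9 6.50-fold (-2.70, adjusted p = 3.55e-05). Lcn2 differed by -5.41 (limma adjusted p = 7.64e-07), and by -3.36 with normexp, and no fold is given because 1 of the 2 RT1B+ arrays was well above background. Csf3r was at least 4.15-fold lower (-2.76, limma adjusted p = 0.00852), and -2.56 with an adjusted p of 0.0542 without glomerular RT1B+ replicate 2. It was also not called with normexp (-0.92, limma adjusted p = 0.0905), quantile normalization (-1.98, adjusted p = 0.0902) or the series matrix (-1.65, adjusted p = 0.276), with which S100a8 was not called either (-3.31, adjusted p = 0.242).

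In glomerular RT1Blow cells 3 of the 5 were lower than on the macrophage-labelled arrays, where 36.2% of genes were called and 13.2% called lower. Lcn2 was at least 29.9-fold lower (-5.10, limma adjusted p = 1.63e-06) and Mmp9 4.65-fold (-2.22, adjusted p = 0.000152). S100a8 was 3.65-fold lower (-1.87, SE 0.72, limma adjusted p = 0.0485), a call lost without macrophage-labelled replicate 1 (-1.10, adjusted p = 0.302) or either RT1Blow array (-1.98 and -1.76, adjusted p = 0.118 and 0.147). It was also lost with quantile normalization, the series matrix and no filter on dim probes (adjusted p = 0.0865, 0.495 and 0.0815), and Lcn2 was -2.63 with normexp. S100a9 differed by -1.21 (SE 0.69, adjusted p = 0.163) and Csf3r by 0.26 (SE 0.72, adjusted p = 0.786), neither of them called. The median over all genes tested was 0.36 in the RT1B+ comparison and 0.45 in the RT1Blow comparison. Of the called genes 56.8% were higher in RT1B+ cells than on the macrophage-labelled arrays, and 68.5% with the values of the series matrix.

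**Figure D2:**
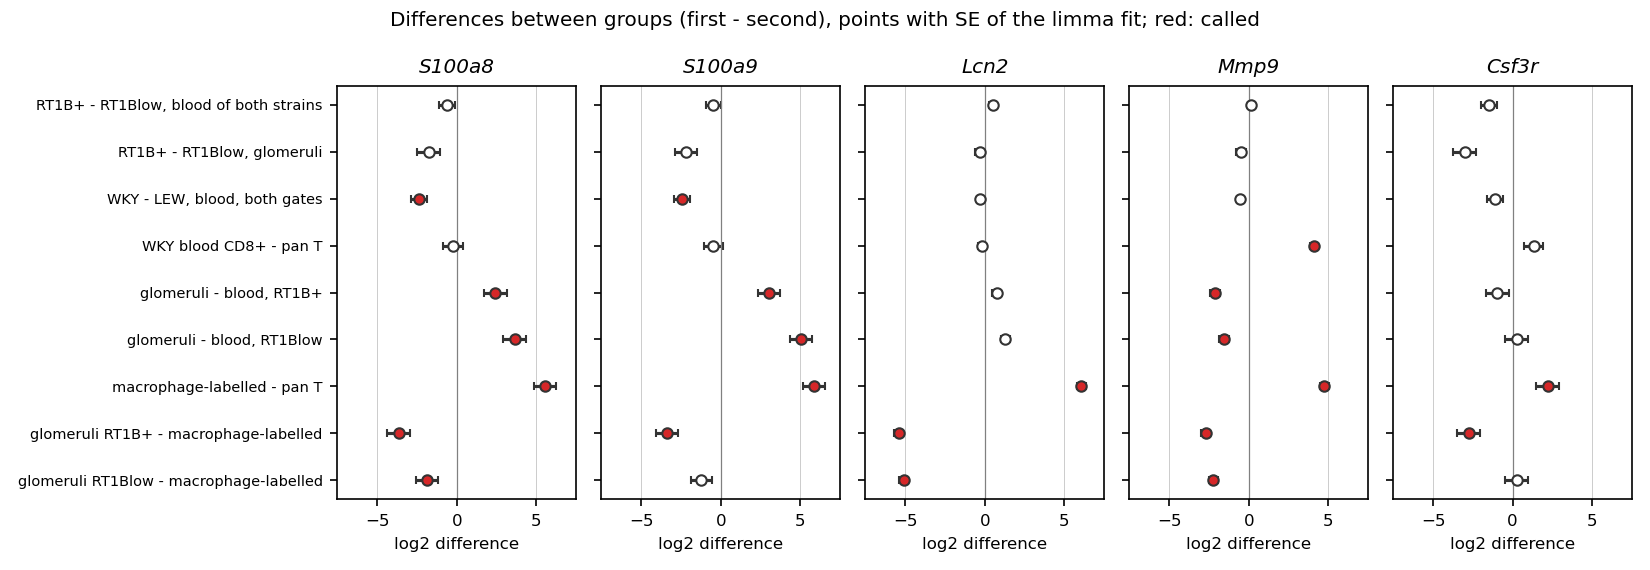
Log2 differences between groups (first minus second, as each row names them) for the 5 tested genes, with standard errors from limma as bars. Red points were called: all 5 genes in macrophage-labelled minus pan T, S100a8, S100a9 and Mmp9 in both glomeruli minus blood comparisons, and none in the RT1B+ minus RT1Blow comparisons.

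Set against blood CD8+ cells of the same RT1B sort, the glomerular CD8+ cells had more calprotectin RNA and less Mmp9 RNA. Blood and glomerular CD8+ arrays lay on different slides, so tissue and slide cannot be told apart here. In RT1B+ cells 3 of the 5 genes were called, against 13.3% of all genes. S100a8 was at least 2.55-fold higher in glomeruli (2.43, SE 0.72, limma adjusted p = 0.038) and Mmp9 4.33-fold lower (-2.11, SE 0.29, adjusted p = 0.00092). S100a9 was higher by 3.05 on the log2 scale (SE 0.69, limma adjusted p = 0.0119), with no fold given because 1 of the 2 blood arrays was well above background. The S100a8 call was lost in 8 of 13 alternatives: with any 1 of the 4 arrays left out (1.91 to 2.95, limma adjusted p = 0.0558 to 0.205), with normexp (0.89, adjusted p = 0.261), the series matrix (6.79, adjusted p = 0.061), quantile normalization (2.62, adjusted p = 0.0535) and no filter on dim probes (adjusted p = 0.0716). The S100a9 call was lost without glomerular RT1B+ replicate 2 (2.80, adjusted p = 0.0946) or WKY blood RT1B+ replicate 1 (1.83, adjusted p = 0.0644), and without WKY blood RT1B+ replicate 2 the value was 4.27. S100a9 was 1.52 with normexp, still called, and not called with only the arrays compared (adjusted p = 0.0611).

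In RT1Blow cells the same 3 genes were called, against 9.29% of all genes. S100a8 was at least 6.52-fold higher in glomeruli (3.64, SE 0.72, limma adjusted p = 0.0118), S100a9 at least 23.3-fold (5.02, SE 0.69, adjusted p = 0.00246) and Mmp9 2.93-fold lower (-1.55, SE 0.29, adjusted p = 0.00955). Without glomerular RT1Blow replicate 1 the S100a8 and Mmp9 calls were lost (3.53 and -1.16, limma adjusted p = 0.0571 and 0.0569). S100a8 also missed the threshold without WKY blood RT1Blow replicate 1 (2.74, adjusted p = 0.0683), and Mmp9 without WKY blood RT1Blow replicate 2 (-1.54, adjusted p = 0.0626); without that array S100a8 was 4.55. S100a8 was 1.94 with normexp, still called, and not called with the series matrix (3.92, adjusted p = 0.237). Lcn2 and Csf3r were not called in either sort. Lcn2 differed by 1.28 in RT1Blow cells (SE 0.28, limma adjusted p = 0.0172), but no array of either group was well above background. The mean level of the monocyte and macrophage markers was -1.58 and -2.36 in glomerular RT1Blow cells against -2.18 and -2.73 in blood RT1Blow cells, and 0 of 9 markers tested were called there. In the RT1B+ sort it was -3.46 and -2.98 in glomeruli and -4.37 and -3.09 in blood, and 1 of 9 was called, Cd14 at 4.38 (limma adjusted p = 0.00994). Some kidney markers were higher in the glomerular sorts too. Of 6 glomerular markers 2 were called higher in RT1B+ cells and 3 in RT1Blow cells (median 1.74 in both). They were led by Podxl, a podocyte and endothelial surface protein gene, at 4.75 (limma adjusted p = 0.00687) and 4.13 (adjusted p = 0.0209). In RT1B+ cells Pecam1 (-0.89) and Wt1 (-0.62) of this list went the other way, neither of them called. Of 8 tubule markers 1 was higher in RT1Blow cells, Umod at 3.35 (limma adjusted p = 0.00199), and 1, Slc12a3, was lower in RT1B+ cells. The part of these other cells in the differences of S100a8, S100a9 and Mmp9 was not tested.

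Both glomerular sorts can be set against blood pan T cells on their own slide, comparisons added after the levels had been seen. The glomerular CD8+ arrays lay in row 1 and the pan T arrays in row 2, so group and slide row cannot be told apart. In RT1B+ cells 2 of the 5 genes were higher, against 27.3% of genes called and 16.4% called higher: S100a9 by at least 4.80-fold (2.45, limma adjusted p = 0.0156) and Mmp9 by 4.13-fold (2.05, adjusted p = 0.000267). S100a9 was not called without pan T replicate 2 (2.25, adjusted p = 0.0778) or glomerular RT1B+ replicate 2 (2.20, adjusted p = 0.0973). S100a8 differed by 1.90 (SE 0.72, adjusted p = 0.0579). With normexp S100a9 was 1.52 and Mmp9 1.28, both still called.

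In RT1Blow cells 4 were higher than in pan T cells, against 28% of genes called and 18% called higher: S100a8 by at least 6.99-fold (3.67, limma adjusted p = 0.00212), S100a9 by at least 21.9-fold (4.65, adjusted p = 0.000402), Mmp9 by 5.77-fold (2.53, adjusted p = 8.06e-05) and Csf3r by at least 2.37-fold (2.47, adjusted p = 0.0184). Csf3r lost its call without pan T replicate 1 (1.63, adjusted p = 0.154) or glomerular RT1Blow replicate 1 (adjusted p = 0.172), and was 3.44 without glomerular RT1Blow replicate 2. It was also lost with only the arrays compared (adjusted p = 0.0706), and the S100a8 call with the series matrix (4.14, adjusted p = 0.164). With normexp Csf3r was 1.18 and S100a8 2.15, both still called. Of the genes called between glomerular RT1B+ and pan T cells 59.9% were higher, and 72.9% with the series matrix. S100a8 ranged from 2.78 without pan T replicate 2 to 4.56 without pan T replicate 1. Blood CD8+ cells of WKY rats against pan T cells, on different slides, gave 1 call of 5 against 18.3% of genes called and 10.3% called higher: Mmp9 was 17.4-fold higher (4.12, SE 0.25, limma adjusted p = 1.17e-06). Beside it, the 6 NK cell markers were all higher (median 3.94) and 6 of 7 T cell markers lower, and 3 of 10 neutrophil receptor genes were higher, such as Itgam, the integrin alpha M gene (3.77, limma adjusted p = 1.46e-06). Without WKY blood RT1B+ replicate 1 Csf3r was called too, which made 2.

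**Figure D3:**
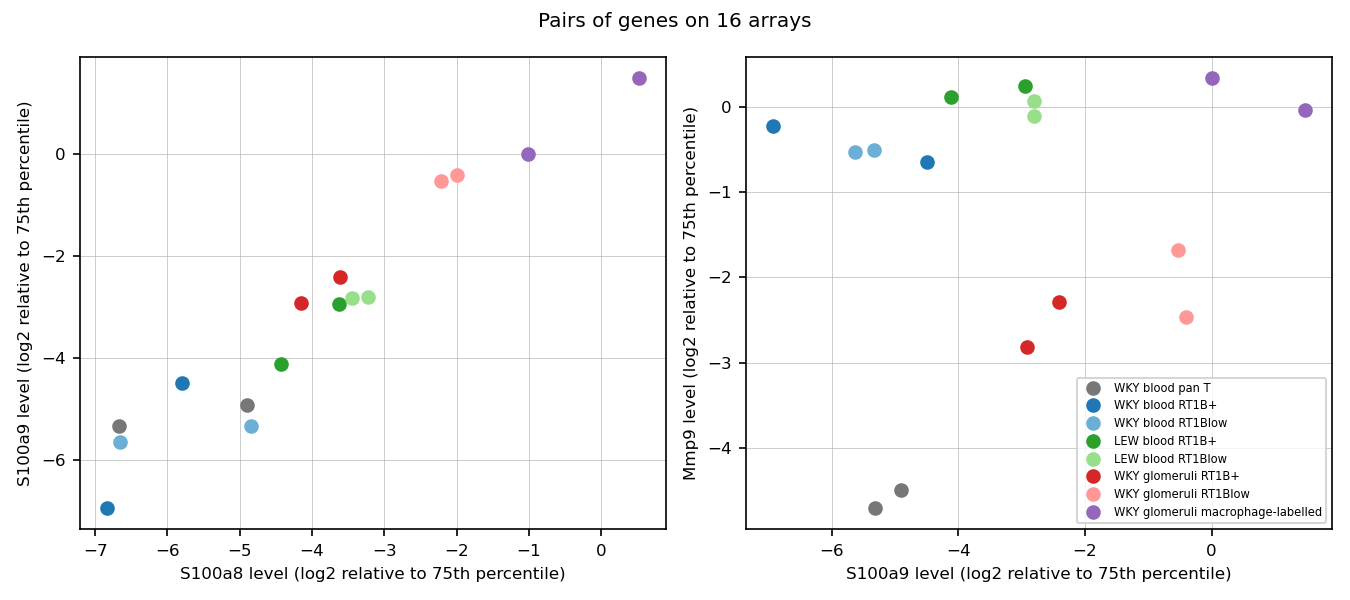
Levels of S100a9 against S100a8 (left) and of Mmp9 against S100a9 (right) on 16 arrays, coloured by group, in log2 units above the 75th percentile. S100a8 and S100a9 lie along a line (Pearson correlation 0.97), while Mmp9 is high in blood CD8+ cells whatever their S100a9 level (correlation 0.17).

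The study sorted CD8+ cells by RT1B, and 0 of the 5 genes were called between RT1B+ and RT1Blow cells in WKY blood, in LEW blood, in blood of both strains together or in glomeruli. The shares of all genes called there were 0.0615%, 0.0615%, 0.447% and 0.794%, so few calls were made at all. In glomeruli 3 of the 5 had an unadjusted limma p under 0.05, each lower on both RT1B+ arrays than on either RT1Blow array. The shares of all genes with such a p or such a separation are not given here. Csf3r differed by -3.02 (SE 0.72, limma adjusted p = 0.0671), S100a9 by -2.19 (SE 0.69, adjusted p = 0.117) and S100a8 by -1.77 (SE 0.72, adjusted p = 0.192). Without the RT1Blow array whose RT1-Bb level went against its label, Csf3r differed by -3.99. That array had the lower of the RT1Blow levels of Csf3r, which were wide apart (-4.91 against -2.97). With a trended and robust variance Csf3r was called (limma adjusted p = 0.0494). With normexp it was -1.34 and not called, while S100a9 was called (-2.04, adjusted p = 0.0496). Over both strains of blood Csf3r differed by -1.47 (SE 0.51, adjusted p = 0.478), with an unadjusted p of 0.0143, and Lcn2, not well above background in any of these groups, by 0.49 (adjusted p = 0.593).

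In the same glomerular comparison 0 of 10 neutrophil receptor genes were called (median -1.49) and 0 of 9 monocyte and macrophage markers (median -1.48), beside -0.14 over all genes. Of 6 granulocyte transcription factors 1 was lower in RT1B+ cells, Cebpa (-3.13, SE 0.61, limma adjusted p = 0.0461), which is needed for granulocyte development. B cell markers were lower in RT1B+ cells for 4 of 6 tested, such as Cd79b (-3.23, limma adjusted p = 0.031). Platelet and red cell genes had a median of -3.02, with 2 of 6 lower in RT1B+ cells, the globin genes Hbb (-5.68, limma adjusted p = 0.0351) and Hba-a1 (-4.88, adjusted p = 0.0321). In blood of both strains their median was -4.97, with 4 of 6 lower in RT1B+ cells. The part of these cells in the gate differences of Csf3r, S100a8 and S100a9 was not tested. The gate lay in the same columns of the slides in all 3 sorts, RT1Blow in columns 1 and 2 and RT1B+ in columns 3 and 4, so gate and column cannot be told apart. The difference of the gate effect between glomeruli and WKY blood was called for 0 of the 5 genes (0.101% of all genes), with 0 at an unadjusted p under 0.05. It was widest for S100a9 (-1.97, SE 0.97, limma adjusted p = 0.73). Between the strains it was called for 0 genes of all those tested (0%), and 0 of the 5 genes had an unadjusted p under 0.05.

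Calprotectin RNA in blood CD8+ cells was compared between the strains. With the RT1B sorts kept apart, 0 of the 5 genes were called in RT1B+ cells (0.654% of all genes) or in RT1Blow cells (0.894%). In each sort S100a8, S100a9, Mmp9 and Csf3r were lower on both WKY arrays than on either LEW array. Lcn2 was so in RT1B+ cells only. The share of all genes that separated in this way is not given here. S100a8 differed by -2.29 (SE 0.72, limma adjusted p = 0.214) and -2.42 (SE 0.72, adjusted p = 0.176), and S100a9 by -2.18 (SE 0.69, adjusted p = 0.218) and -2.67 (SE 0.69, adjusted p = 0.115). With only the arrays compared in the fit, S100a9 was called in RT1Blow cells (limma adjusted p = 0.00488), and in RT1B+ cells it was called without WKY blood RT1B+ replicate 2 (-3.40, adjusted p = 0.0185). Over both sorts, a comparison added after the levels had been seen, S100a8 and S100a9 were called lower in WKY. The shares of all genes were 3.64% called and 2.67% called lower. Of the called genes 26.8% were higher in WKY, and 6.94% with the series matrix, where the median over all genes was -0.31. S100a8 was at least 2.54-fold lower in WKY (-2.35, SE 0.51, limma adjusted p = 0.0223). S100a9 had a log2 difference of -2.43 (SE 0.49, limma adjusted p = 0.0161), with no fold given because 1 of the 4 WKY arrays was well above background. With normexp neither was called, at -0.93 (limma adjusted p = 0.204) and -1.21 (adjusted p = 0.0532), and with the series matrix S100a8 was not, at -4.83 (adjusted p = 0.0666). All LEW arrays lay in row 1 and all WKY CD8+ arrays in row 2 of the same slide, so strain and slide row cannot be told apart.

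These 2 calls rest on few arrays. Both were lost without LEW blood RT1B+ replicate 1 (-2.16 and -2.13, limma adjusted p = 0.0989 and 0.0761), LEW blood RT1Blow replicate 1 (-2.30 and -2.43, adjusted p = 0.0919 and 0.0663) or replicate 2 (-2.41 and -2.43, adjusted p = 0.0696 and 0.0613), and WKY blood RT1Blow replicate 1 (-1.90 and -2.35, adjusted p = 0.0759 and 0.0549). Without WKY blood RT1B+ replicate 1, the array low in monocyte markers, S100a9 was still called at -1.82 (limma adjusted p = 0.0277) and S100a8 was not, at -2.09 (adjusted p = 0.0721). Without WKY blood RT1B+ replicate 2 S100a9 was -3.04. Mmp9 differed by -0.56 (SE 0.21, adjusted p = 0.168), Csf3r by -1.11 (SE 0.51, adjusted p = 0.268) and Lcn2 by -0.32 (SE 0.20, adjusted p = 0.438), none of them called.

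Some markers of several cell types were called lower in WKY blood in the same comparison, and most genes of each list were not called. In every list below except the granule genes, some genes were higher in WKY without a call. The medians were -0.60 for T cell, -0.71 for B cell and -0.25 for NK cell markers, and -0.44 for the receptor genes. Of 9 monocyte and macrophage markers 2 were lower (median -1.45, beside -0.00 over all genes): Fcgr1a, the high-affinity IgG receptor (-2.81, limma adjusted p = 0.0345), and Cd68 (-2.01, adjusted p = 0.0439). Of 6 granulocyte transcription factors 2 were lower, Cebpa (-2.33, limma adjusted p = 0.0112) and Cebpd (-1.75, adjusted p = 0.0382). Of 10 receptor genes 1 was lower, Fpr1, the formyl peptide receptor (-1.96, limma adjusted p = 0.0278), and of 8 specific granule genes 1, Chi3l1 (-2.81, adjusted p = 0.0163). The mean level of the 11 monocyte and macrophage markers ranged from -4.37 to -2.18 in the 4 WKY arrays and from -3.41 to -1.68 in the 4 LEW arrays, so the groups overlapped. Among lymphoid markers 2 of 7 T cell genes (Lef1 and Cd4), 2 of 6 B cell genes (Cd22 at -1.53, limma adjusted p = 0.0094, and Blk at -1.45, adjusted p = 0.00598) and 1 of 6 NK cell genes (Klrb1a) were lower as well. Their part in the calprotectin difference was not tested.

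**Figure D4:**
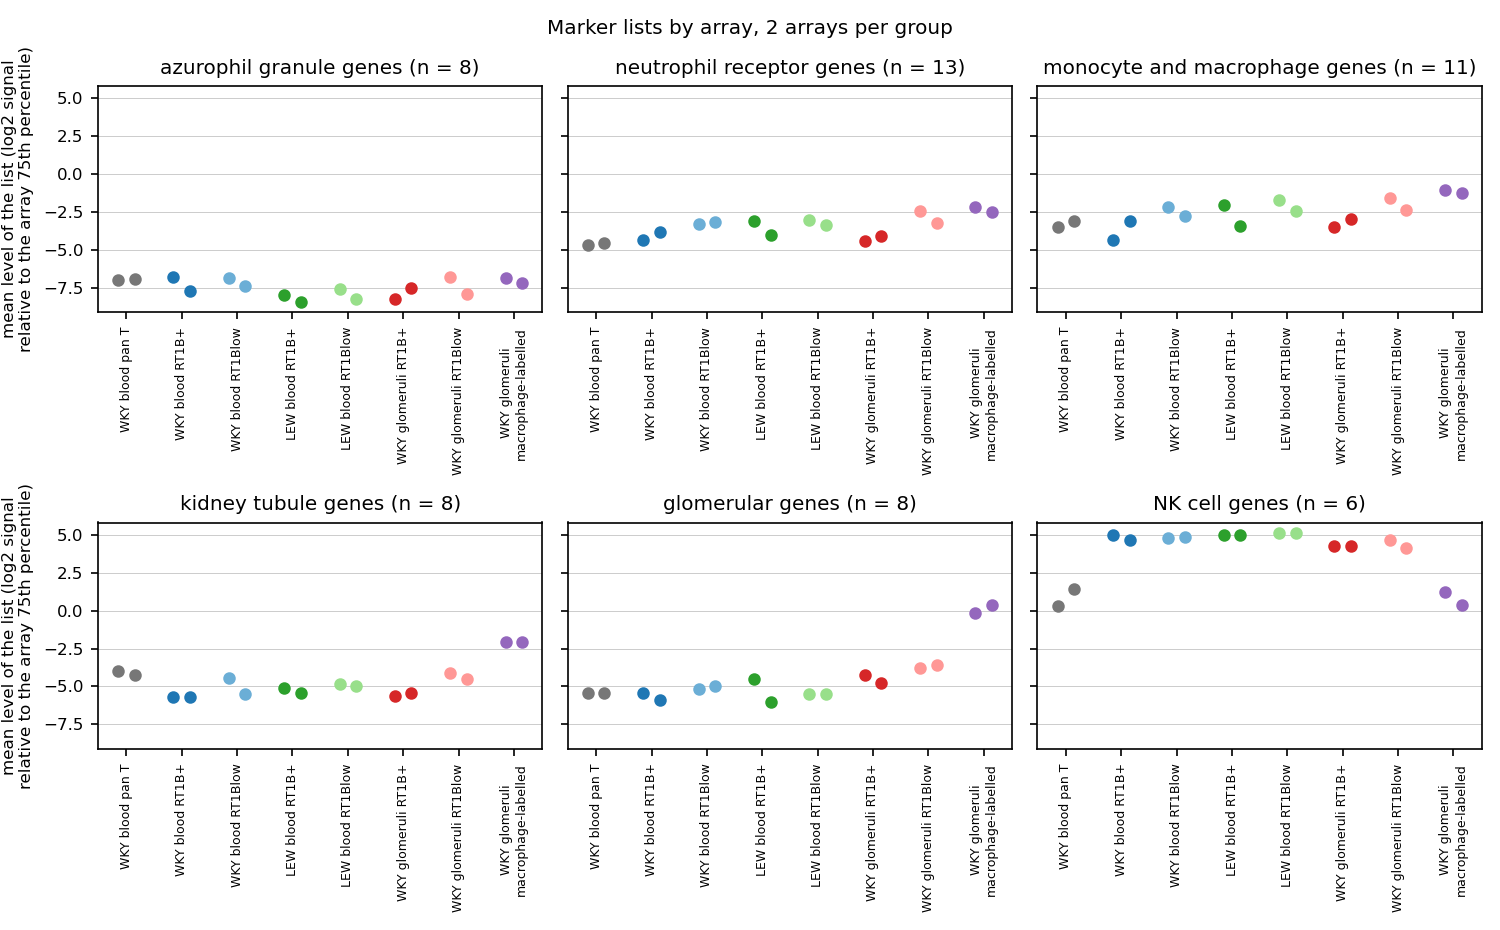
Mean level of 6 marker lists on each of 16 arrays, in log2 units above the 75th percentile, with the number of genes with a probe in each title. Azurophil granule genes were near background on all arrays, kidney tubule and glomerular genes were highest on the macrophage-labelled arrays, and monocyte and macrophage genes ranged from -4.37 to -1.01.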

How the data were processed

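RNA was hybridised to 16 Agilent 1-colour rat arrays on 2 slides. Per the file headers, Feature Extraction (version 11.0.1.1) made the deposited spot intensity, which is linear, background-subtracted and not scaled across arrays. The submitters' design text describes Illumina arrays instead. The log2 values deposited in the series matrix follow the log2 background-subtracted signal of each array (correlation across spots at least 0.9990), with medians of 8.04 to 8.13 over gene spots and 12.1% to 20.0% missing; the normalization behind it is not given in the sources used here.

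Signals were scaled to the 75th percentile of each array and log2-transformed, spots flagged as outliers were left out, and replicate spots were averaged. For a gene with several probes the probe with the highest mean was used. Of 30367 probes, 18355 matched a symbol through RefSeq accessions (assembly GRCr8, used for names and for the start regions shown). All 16 arrays were fitted with limma 3.58.1 in R 4.3.3 (with version 1.17.8 of data.table), with a mean per group, in 14 planned and 3 added comparisons. 0 spots were saturated, and 2 arrays per group limit the precision. Figures were drawn with matplotlib 3.10.9 in Python 3.11.15.

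The 8 genes and the marker lists were chosen with earlier results of these data known. From each list up to 4 genes could be named: the called ones with the largest differences, or without a call the brightest. Single genes named outside that rule (Hp, Ltf, the azurophil granule genes, RT1-Bb, Cd3e, Pecam1, Wt1) were chosen after their values were seen. Genes most like a member were the 3 with the highest Pearson correlation; 1 of them is not reported here. Alternatives were normexp background correction with an offset of 50, quantile normalization, the series matrix, other filters on dim probes, the mean of all probes, a robust trended variance, no minimum fold, a fit on the compared arrays or their slide alone, and leaving out single arrays.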

Additional observations from a re-analysis of the deposited data

How the results depend on the processing

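Over 28 called differences of single genes and 392 recomputed values, 341 kept direction and call, 51 kept direction and lost the call, and 0 reversed. Lcn2 was called in each of its alternatives, and Mmp9 in all but 2 for glomerular against blood RT1Blow cells. With normexp the number of the 5 genes called was 1 between gates in glomeruli (S100a9, adjusted p = 0.0496 with limma) and 0 between strains over both sorts, where S100a8 was -0.93 and S100a9 -1.21. With a trended and robust variance it was 1 between gates in glomeruli (Csf3r), and with only the arrays compared 1 between strains in RT1Blow cells (S100a9). With the series matrix it was 3 for glomerular RT1B+ cells against the macrophage-labelled arrays and 1 between strains over both sorts. With the series matrix the median strain difference of all genes moved to -0.31 from -0.00, and 6.94% of called genes were higher in WKY, against 26.8%. S100a8 in RT1B+ cells of glomeruli against blood was 0.89 with normexp and 6.79 with the series matrix, both not called. The causes were not tested. With each array left out in turn, 0 to 1 of the 5 were called between gates in glomeruli and between strains in RT1B+ cells, 1 to 2 in glomerular against blood RT1B+ cells, 1 to 3 in the RT1Blow cells, 1 to 2 in blood CD8+ against pan T cells, 0 to 2 between strains over both sorts and 1 to 3 in glomerular RT1B+ against pan T cells. No paired analysis was possible because the labels give no replicate numbers that pair arrays across groups. Between gates in glomeruli the count of all genes called, 142, was 2 with only the arrays compared, 16 without a filter, 31 with only their slide, 35 with the series matrix, 90 with quantile normalization and 272 with a trended and robust variance. Between strains it was 339 with normexp and 1355 with the series matrix, against 652 over both sorts. In the RT1B+ sort it ranged over the alternatives from 51 to 350 (117 as reported) and in the RT1Blow sort from 48 to 791 (160). Between gates it fell to 0 in WKY blood (11), ranged from 0 to 25 in LEW blood (11), and was 27 with normexp over both strains (80). It was 1390 for glomerular against blood RT1B+ cells with only the arrays compared (2372), 854 for the RT1Blow cells without a filter (1662), 4943 for blood CD8+ against pan T cells without a minimum fold (3275), and 11 with normexp for the difference of the gate effect between glomeruli and WKY blood (18). Signals near the array floor limit S100a8, S100a9 and Csf3r in WKY blood and pan T cells, and an array raised to its floor has no order there.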

Other observations

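Genes whose products draw or activate neutrophils were measured on the same arrays. Il1b, the interleukin 1 beta gene, stood at 5.98 and 5.09 on the macrophage-labelled arrays and 5.52 and 3.93 in glomerular RT1Blow cells, against -1.51 and -1.49 in pan T cells. Its difference between the macrophage-labelled and pan T arrays was 7.04 (SE 0.76, limma adjusted p = 2.38e-05). Of 6 such genes tested, 5 were higher on the macrophage-labelled arrays than in pan T cells (median 4.33), among them the CXCR2 ligand genes Cxcl1 (4.67, limma adjusted p = 0.00344) and Cxcl2 (3.99, adjusted p = 0.00304). Both ligands were well above background on all arrays, although Cxcr2 itself was not on any. In blood, Cxcl2 ranged from 1.05 to 4.01 on the WKY CD8+ arrays and from 1.96 to 5.23 on the LEW ones, and the ranges overlapped.

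The genes of metalloproteinase inhibitors, which block gelatinases such as that of Mmp9, were also highest on the macrophage-labelled arrays. Timp1 stood at 3.28 and 3.28 there, against at most -0.25 on any other array, and Timp3 at -1.08 and 0.11. All 3 inhibitor genes tested were higher there than in pan T cells: Timp3 (6.55, limma adjusted p = 4.74e-06), Timp2 (4.72, adjusted p = 0.000442) and Timp1 (4.19, adjusted p = 4.02e-07). In glomerular against blood CD8+ cells, where Mmp9 was lower, 1 of the 3 inhibitor genes tested was called in each sort. It was Timp1, higher by 2.12 in RT1B+ cells (limma adjusted p = 0.000307) and 1.75 in RT1Blow cells (adjusted p = 0.00246). Tissue and slide cannot be told apart there. Against pan T cells Timp1 was lower in WKY blood CD8+ cells, on different slides (-1.67, limma adjusted p = 0.000119). It was not called between either glomerular sort and pan T cells (0.18 in RT1B+ and 0.34 in RT1Blow cells).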
